A study of Homo sapiens with 3 samples.

Results

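HT29 cells, an established human colorectal cancer line, were given a linderapyrone derivative at 20 µM for 24 h and set against HT29 cells given DMSO, the solvent, for the same time. The comparison held every gene whose probe was detected above the blank spots on both of these arrays. That was 16062 of the 18639 genes with a named probe, from 2 of the 3 arrays of the series. The third array held HT29 cells given 5 µM of the derivative for 24 h, and its values are set beside those at 20 µM. All 3 groups shared 1 line and 1 medium, low-glucose DMEM with fetal bovine serum and antibiotics, and were treated near confluence on culture dishes. The treatment labels and descriptions give the doses in µM and the titles in mM, and µM was used. The sources used here do not give the derivative's structure or say whether the cultures were handled together.

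Each group had 1 array, with no replicate. No test was therefore possible, and every difference below is a description of these arrays. The design asked which genes differ in expression between treated and DMSO cells. Levels are normalized signals, that is spot brightness after background correction with an offset of 50 added and all 3 arrays brought to 1 distribution. A ratio is the log2 of the 20 µM level over the DMSO level, so 1 stands for 2-fold higher and -1 for 2-fold lower. The offset makes the ratios of dim genes too small.

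Spots had a median signal of 117 on the DMSO array, where the detection threshold was 82.5, and of 110 on the 20 µM array, where it was 80.2. Of 12 markers fixed for HT29 and colon epithelium, 11 had a named probe, all but KRT8. All 11 were detected on both arrays, from a DMSO level of 61.1 to 52120 for KRT18, a keratin of simple epithelia. EPCAM, an epithelial adhesion molecule, was at 8377 in DMSO and 7138 at 20 µM. Of markers of other cell types with a named probe, 5 of 10 for fibroblasts, 5 of 7 for blood and 5 of 7 for endothelium were detected. So were 8 of 9 each for liver and for neuron and muscle, and the ratios of all these markers lay between -0.21 and 0.28. The brightest of them was LYZ, lysozyme, at 13920 in DMSO and 12030 at 20 µM, a gene that intestinal cells also express. The lowest DMSO level in each of these other sets lay between 56.1 and 58.1. The colon markers CDH17 and CDX2 were also dim, at 61.1 and 64.8. In DMSO, 13.1% of positions that hold no probe passed the threshold as well, so detection at such levels does not show expression.

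Ratios centred near 0, with a median of 0.0071, quartiles of -0.08 and 0.08, and 94.4% of genes within 0.5. Ratios lay above 0 for 8478 genes and below 0 for 7570, or 52.8% above. At least 2-fold higher at 20 µM were 71 genes, or 0.442% of those detected on both arrays, and at least 2-fold lower were 52, or 0.324%. Thus 57.7% of the 123 genes past 2-fold were higher. Scaling the arrays by their medians in place of their whole distributions gave 52 higher and 74 lower, or 41.3% higher, so which direction holds more genes turned with the scaling. All 123 genes kept their direction under that scaling, where 52 of the 71 higher and all 52 lower genes stayed past 2-fold. With the scanner's local background column taken off, 78 of the 123 kept their direction. Counts in the gene lists below stand beside shares of 0.442% higher and 0.324% lower over all genes. At such shares, 0 genes past 2-fold in a short list does not set it apart from all genes.

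**Figure D1:**
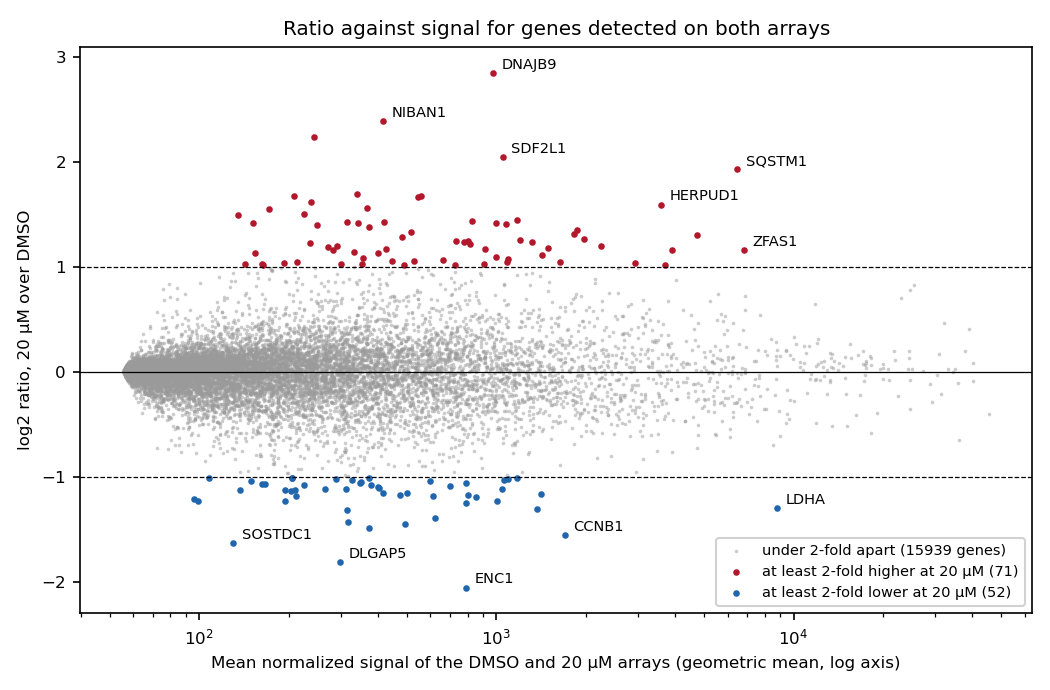
Each point is 1 of the 16062 genes, with its mean normalized signal on a log axis and its log2 ratio of 20 µM over DMSO, dashed lines marking 2-fold. The 71 higher genes (red) and 52 lower genes (blue) sit at middle and high signals, and below a mean level of 71.3 no gene lies past 2-fold.

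The spread of the ratios grew with the signal when the genes were split by mean level into 4 groups of equal size. In the dimmest, with mean levels of 55.7 to 71.3, the SD of the ratios was 0.06 and 0 genes were past 2-fold. The brightest, from 275 to 45400, had an SD of 0.37, with 55 genes higher and 35 lower, which is 2.24% of its genes. The offset compresses the ratios of dim genes, so the lack of genes past 2-fold there says nothing about those genes' transcripts.

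Second probes of the same gene gave a check within the arrays. Over 2007 pairs of probes, the SD of a single ratio was 0.14 on the log2 scale, which covers probe and spot differences and leaves out the spread between cultures. It pools pairs of all brightness, and ratios of dim genes are compressed, so it may be too small for bright genes. Of the 123 genes past 2-fold, 26 had another detected probe, and for 25 of them it pointed the same way. It was past 2-fold again for 10, among them SELENOK (1.45 and 1.28), AKR1B10 (1.42 and 1.25), CCNB1 (-1.55 and -1.26), DLGAP5 (-1.81 and -1.48) and H3-3B (-1.01 and -1.21).

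The widest disagreements came with a much dimmer second probe. TXNRD1 read 1.01 on a probe at 2606 in DMSO and 0.03 on one at 68.7. SRXN1 read 1.43 at 255 and 0.04 at 58.7, and SERP1 read 1.27 at 1271 and 0.0019 at 117. ARMCX3, the exception in direction, read 1.42 at 209 and -0.03 at 66.6. Whether the dimmer probes report other transcripts was not tested.

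The genes past 2-fold were grouped by what their products are known to do, with the groups assigned after the values had been seen. Among the higher genes the group with most members was folding and degradation of proteins in the endoplasmic reticulum (ER), with 13 higher and 0 lower. Among the lower genes it was mitosis, with 0 higher and 24 lower. Glycosylation and secretory traffic had 6 higher and 0 lower, and oxidative stress and autophagy 8 higher and 0 lower. Signalling, with 6 higher and 5 lower, and membrane transport and surface proteins, with 3 higher and 4 lower, were split.

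**Figure D2:**
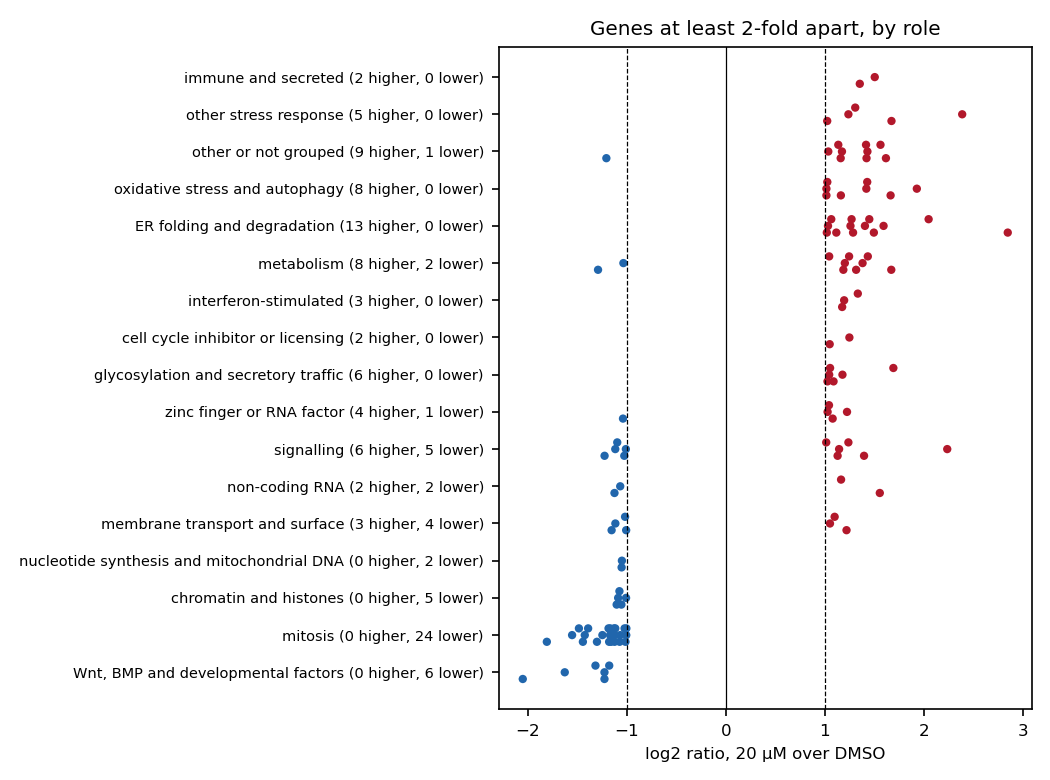
Each point is 1 of the 123 genes at least 2-fold apart, placed by its log2 ratio of 20 µM over DMSO and by role, with the counts beside each role. The 13 ER genes are all on the higher side and reach 2.85, and the 24 mitosis genes are all on the lower side and reach -1.81.

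Proteins for secretion or for membranes fold in the ER with the help of the chaperone BiP (HSPA5), its J-domain partners and nucleotide exchange factors. When unfolded proteins build up, the sensors PERK, IRE1 and ATF6 signal to the nucleus in what is called the unfolded protein response, which raises chaperones, degradation factors and the vesicle machinery. Colorectal cancer cells that secrete much protein use the same machinery at rest.

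DNAJB9, a J-domain protein that binds BiP and restrains IRE1, had the highest ratio of all genes. It was at 363 in DMSO, 1679 at 5 µM and 2611 at 20 µM, a ratio of 2.85 or 7.19-fold. SDF2L1, another partner of BiP, was at 519, 1902 and 2143, a ratio of 2.05. Both stood at several times their DMSO level already on the 5 µM array. FICD, which attaches AMP to BiP and removes it, was at 80.7, 177 and 227, a ratio of 1.49. DNAJC3, which inhibits PERK, was at 308, 675 and 751, a ratio of 1.28. MANF, a secreted BiP cofactor, was at 970, 2310 and 2100, a ratio of 1.11, and was thus highest on the 5 µM array.

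Of the 17 detected genes of the BiP cycle and its co-chaperones, 6 were at least 2-fold higher, 16 lay above 0 and the median was 0.71. Over all genes 0.442% were at least 2-fold higher, 52.8% lay above 0 and the median was 0.0071. BiP itself read 141, 236 and 214, a ratio of 0.60, on a dim probe for a gene whose transcript is usually abundant. SDF2, the paralog of SDF2L1, was the 1 gene of the list below 0, at -0.36. The median of the list at 5 µM was 0.59. The lists of ER oxidoreductases (20 genes, median 0.14) and of the sensors and effectors of the response (23 genes, median 0.20) were closer to the whole set, and under median scaling at 0.08 and 0.13. In the latter, DDIT3, the transcription factor CHOP, was at 3015, 5761 and 7454, a ratio of 1.31. EIF2AK3, which encodes PERK, was at 116, 173 and 234, a ratio of 1.02, and had 0.98 under median scaling. XBP1, named here outside the rule for named genes, was at 4173, 4958 and 4307, a ratio of 0.05.

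ER-associated degradation extracts misfolded proteins to the cytosol. HERPUD1, a membrane adaptor of that route, was at 2063, 5786 and 6218, a ratio of 1.59. The selenoproteins SELENOK and SELENOS, which bind the retrotranslocation complex, had ratios of 1.45 and 1.40, and DERL2, a channel component, had 1.06. These were the 4 of 27 detected genes past 2-fold, against 0.442% of all genes higher, and DERL2 fell short under median scaling at 0.97. Of the 27 genes, 23 lay above 0 and the median was 0.20, or 0.10 under median scaling. At the other end of the list, UBE2G2, a ubiquitin-conjugating enzyme, had -0.15.

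Promoter sequences were available from RefSeq (GRCh38.p14) for 60 of the 71 higher genes, 44 of the 52 lower genes and 12645 of the genes detected on both arrays, as windows from 250 bases before to 50 bases after the annotated start. The ER stress elements are short motifs known from promoters of chaperone genes. ERSE was searched as CCAAT, then 9 bases, then CCACG, and ERSE-II as ATTGG, then 1 base, then CCACG, both on both strands. ERSE was found in 2 of the 60 windows of higher genes (FICD and SERP1) and in 0.127% of windows of all detected genes. ERSE-II was found in 2 of the 60 (SDF2L1 and HERPUD1) and in 0.0949% of all detected. Neither was found in the 44 windows of lower genes. All 4 of these genes belong to the 13 of ER folding and degradation. The 200 bases before the start of 3 of them, picked after their ratios were seen, are shown to make the elements visible, with the element in capitals.

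SDF2L1: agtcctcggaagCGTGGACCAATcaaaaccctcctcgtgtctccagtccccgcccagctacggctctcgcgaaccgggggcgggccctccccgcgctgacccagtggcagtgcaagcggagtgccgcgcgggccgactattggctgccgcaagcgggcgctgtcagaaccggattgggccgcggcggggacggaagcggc
HERPUD1: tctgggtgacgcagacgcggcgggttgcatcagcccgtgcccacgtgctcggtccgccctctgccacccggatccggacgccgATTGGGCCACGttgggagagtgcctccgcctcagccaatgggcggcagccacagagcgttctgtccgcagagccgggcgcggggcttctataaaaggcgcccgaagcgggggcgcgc
FICD: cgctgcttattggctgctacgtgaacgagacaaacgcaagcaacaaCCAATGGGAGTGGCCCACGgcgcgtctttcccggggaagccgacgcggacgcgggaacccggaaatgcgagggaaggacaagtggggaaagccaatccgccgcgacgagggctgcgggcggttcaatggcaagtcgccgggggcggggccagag

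The SDF2L1 window is chr22:21642102-21642301 on the plus strand, and its ERSE-II match starts 188 bases before the start and reads on the opposite strand. The HERPUD1 window is chr16:56931942-56932141, plus strand, with ERSE-II 117 bases before the start. The FICD window is chr12:108515077-108515276, plus strand, with ERSE 154 bases before the start. The CCAAT box on its own, the site of the factor NF-Y and part of both elements, was in all 13 windows of the ER genes. It was in 34 of 60 windows of higher genes (56.7%), in 28 of 44 of lower genes (63.6%) and in 36.4% of all detected. Of the windows of mitosis genes past 2-fold, which were lower, 16 of 20 (80.0%) held it. The ER genes had been grouped after their values were seen, so these shares describe the group and not the treatment. A match is a run of letters and does not show that a factor binds there.

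Genes of entry into the ER and of transport out of it had list medians above 0 with few members past 2-fold. In the list of the translocon and signal processing, 19 of 25 genes were above 0 with a median of 0.36 (0.22 under median scaling), and 0 were past 2-fold. SEC61A1, the pore of the translocon, was nearest at 955, 1454 and 1830, a ratio of 0.94. Of the COPII coat, which forms the vesicles that leave the ER, 23 of 24 genes were above 0 with a median of 0.34. SEC24D, a cargo adaptor of the coat, was at 189, 398 and 610, a ratio of 1.69, and SEC31A, of its outer layer, was at 855, 1212 and 1620, a ratio of 0.92. SEC24B, another cargo adaptor, was the 1 gene of the list below 0, at -0.19.

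Of the COPI coat and Golgi tethers, 20 of 23 genes were above 0 with a median of 0.28. ARFGAP3, which acts on COPI vesicles, had a ratio of 1.09. N-glycosylation, the attachment of sugar chains to proteins in the ER, had 20 of 27 genes above 0 and a median of 0.15, which was 0.05 under median scaling. Its members past 2-fold were GFPT1, the entry enzyme of the hexosamine pathway, at 994, 1299 and 2247, and ALG2, a mannosyltransferase, at 367, 626 and 761. ALG2 had 1.05, with 0.33 on its second probe and 0.94 under median scaling. PRRC1, a Golgi protein, and TBC1D2, a GTPase-activating protein for Rab proteins, had ratios of 1.03 and 1.04, and the second probe of TBC1D2 gave 0.36.

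A grouping by the letters of gene symbols used the same ratios and shares genes such as SEC24D and SEC61A1 with the lists above. It is a second description of these values and no separate support. Of 214 families with 10 or more detected genes, GOLGA (golgins, 14 of 15 above 0) and SEC (18 of 24 above 0) had the highest medians, both 0.24. The GOLGA family includes GOLGA6L2 and GOLGA8B, and whether its probes share targets was not tested. DNAJB followed at 0.19 and UTP at 0.14, and HSPA, PRSS and BTBD had 0.12, 0.10 and 0.09. Symbols of TUBB with a number, the beta tubulins, had 10 of 10 above 0 and a median of 0.13, and TUBB itself, which the grouping leaves out, had a ratio of -0.31.

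Phosphorylation of the initiation factor eIF2 by PERK and related kinases raises ATF4, which turns on genes of amino acid supply. NIBAN1, a stress protein linked to this response, was at 182, 321 and 952, a ratio of 2.39, the second highest under the processing used here. NUPR1, a stress-induced chromatin protein, was at 248, 254 and 504, a ratio of 1.02, and its 5 µM level stood close to DMSO. These were the 2 of 27 listed ATF4 target genes past 2-fold, and the median of the list was 0.13, or 0.07 under median scaling. ASNS, asparagine synthetase, had 0.73 from a level of 5338, while CHAC1 and PSPH, both also targets, were below 0 at -0.40 and -0.41, the former named outside the rule.

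Aminoacyl-tRNA synthetases, which load tRNAs with amino acids, differed by compartment. The 20 cytosolic enzymes had a median of 0.27 with 15 above 0, and the 16 mitochondrial ones a median of -0.0063 with 8 above 0. WARS1, the cytosolic tryptophan enzyme, was at 858, 1177 and 2024, a ratio of 1.24. SARS1, for serine, followed at 0.85 and AARS1, for alanine, at 0.68. Among the mitochondrial enzymes, FARS2 (-0.38) and IARS2 (-0.34) were on the lower side. Under median scaling the cytosolic median was 0.12.

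NRF2 is a transcription factor freed from KEAP1 by oxidants and electrophiles, and its targets make glutathione, reduce thioredoxin and supply NADPH. SQSTM1, the autophagy receptor p62, which also binds KEAP1, was at 3318, 6546 and 12630, a ratio of 1.93. GCLC, which catalyses the rate-limiting step towards glutathione, was at 306, 440 and 971, a ratio of 1.66. SRXN1, sulfiredoxin, was at 255, 311 and 686, and HMOX1, heme oxygenase, was at 188, 219 and 421, ratios of 1.43 and 1.16. For GCLC, SRXN1 and HMOX1 most of the log2 difference from DMSO lay between the 5 and the 20 µM array, while SQSTM1 had 0.98 already at 5 µM.

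TXNRD1, thioredoxin reductase, was at 2606, 2754 and 5266, and UGDH, which makes UDP-glucuronate, was at 344, 436 and 696. With OSGIN1, an oxidative stress-induced growth inhibitor, at 114, 139 and 231, they made 7 of 27 detected genes past 2-fold, against 0.442% of all genes. Under median scaling TXNRD1, UGDH and OSGIN1 fell short of the line, at 0.88, 0.91 and 0.99, and a second, dim probe of TXNRD1 gave 0.03. The list had 24 of 27 above 0 and a median of 0.24 (0.40 in the authors' value table), and a median of 0.06 at 5 µM. NQO1, a classical NRF2 target named outside the rule, was at 5291, 5187 and 5786, a ratio of 0.13. PRDX1, a peroxiredoxin, was lowest in the list at -0.34.

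AKR1B10, an aldo-keto reductase that reduces aldehydes, was at 608, 845 and 1625, a ratio of 1.42. AKR1C2, a related enzyme, had 0.95, and close sequence among AKR1C genes leaves it uncertain which of them its probe reads. Glutathione transferases and peroxidases did not stand with the NRF2 list. Of these 21 genes, 8 were above 0 and 0 past 2-fold, and the median was -0.03. The NRF2 element, searched as TGAC, then 3 bases, then GC on both strands, was in 20.0% of windows of higher genes, 13.6% of lower genes and 14.8% of all detected. It was also in 4 of 20 windows of mitosis genes past 2-fold. Of the NRF2 list's genes past 2-fold, TXNRD1 had a match, while SQSTM1, GCLC, SRXN1, UGDH and OSGIN1 had none. HMOX1 had no window.

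Autophagy genes gave a median of 0.15 over 33 genes (0.07 under median scaling), with SQSTM1 the 1 gene past 2-fold. GABARAPL1, WIPI1 and MAP1LC3B, which act in forming autophagosomes, stood just under the line at 0.95, 0.94 and 0.94. Lysosomal enzymes and the proton pump had a median of 0.0086 over 32 genes, which changed sign to -0.08 under median scaling. CTSZ, a cathepsin, was lowest among them at -0.85. Proteasome genes were on the lower side, with 28 of 34 below 0, a median of -0.15 (-0.26 under median scaling) and PSMB7, a core subunit, lowest at -0.59.

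ZFAND2A, which associates with the proteasome under stress, was at 312, 598 and 995, a ratio of 1.67. It was the 1 gene past 2-fold of 25 listed under cytosolic heat shock proteins, whose median was 0.09. HSPA1A, the inducible cytosolic Hsp70, had 0.74, and HSPB1, a small heat shock protein, had -0.59.

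Interferon-stimulated genes code for antiviral proteins and are on at rest in some tumour lines. IFI44L was at 1486 in DMSO, 1534 at 5 µM and 3401 at 20 µM, a ratio of 1.19. MX2, a dynamin-like antiviral GTPase, was at 611, 580 and 1379, a ratio of 1.17, with 0.82 on its second probe. SLFN5, of the Schlafen family, was at 325, 375 and 818, a ratio of 1.33. In all 3 the 5 µM level stayed near DMSO. Of 40 listed genes 31 were above 0 and the median was 0.44. HERC5, a ligase for the modifier ISG15, missed the line at 0.998. IFIT3 was lowest, at 1914, 1029 and 1365, a ratio of -0.49. Genes of MHC class I presentation had 15 of 17 above 0 and a median of 0.19 (0.12 under median scaling), led by TAP1, the peptide transporter, at 0.48.

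**Figure D3:**
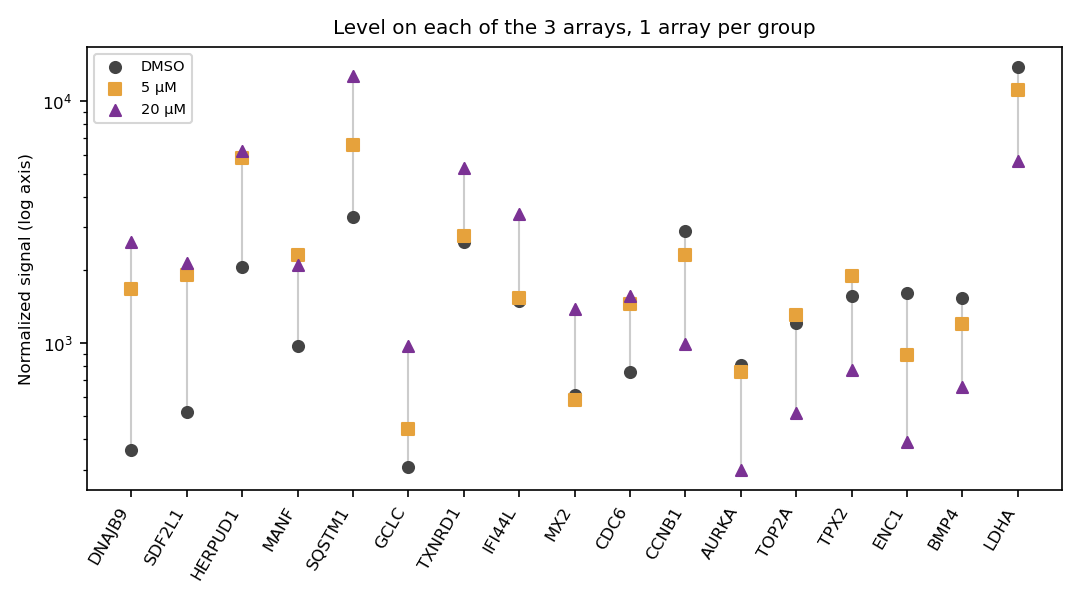
Normalized signal on a log axis of 17 genes named in the text on the DMSO, 5 µM and 20 µM arrays, 1 array per group, so no error can be drawn. SDF2L1 and HERPUD1 stand near their 20 µM level already at 5 µM and DNAJB9 at 1679 of 2611, while TXNRD1, IFI44L, AURKA and TOP2A stand near DMSO at 5 µM.

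Mitosis depends on cyclin B with CDK1, on the Aurora and Polo kinases, on the kinetochores that attach chromosomes to the spindle, and on motors of the kinesin family. Most of their transcripts peak in G2 and M phase, so their bulk level follows the share of cells in those phases. In a bulk sample, fewer cells with such transcripts and less RNA per cell cannot be told apart.

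CCNB1, cyclin B1, was at 2909 in DMSO, 2319 at 5 µM and 992 at 20 µM, a ratio of -1.55. CCNB2 was at 2151, 1923 and 872, a ratio of -1.30, and CCNA2, cyclin A2, was at 617, 570 and 279, a ratio of -1.15. For all 3 cyclins the 20 µM array was the lowest and the 5 µM level stood nearer to DMSO. AURKA, Aurora kinase A, was at 812, 759 and 298, a ratio of -1.44. TPX2, its activator on the spindle, was at 1558, 1899 and 771, so that its 5 µM level lay above DMSO. PTTG1, securin, had -1.01, and CDKN3, a phosphatase of cyclin-dependent kinases, had -1.19. PTTG3P, a processed copy of PTTG1, had -1.16, and reads of such a copy and its parent may not be separable on an array.

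Of the 30 listed mitotic cyclins, kinases and regulators, 6 were at least 2-fold lower and 26 were below 0, with a median of -0.63 and of -0.09 at 5 µM. Over all genes 0.324% were at least 2-fold lower. CKS1B, a small CDK-binding protein, was highest at 2224, 2821 and 3215, a ratio of 0.53. PLK1, named outside the rule, was dim, at 93.9 in DMSO, and had -0.44.

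Kinetochore and checkpoint genes had 5 of 35 past 2-fold, 31 below 0 and a median of -0.34, which was -0.66 in the authors' value table. BUB1, a checkpoint kinase, was at 519, 433 and 193, a ratio of -1.43. NDC80, which binds microtubules at the kinetochore, was at 1009, 725 and 385, a ratio of -1.39. CENPE, a kinetochore motor, had -1.18 and -0.88 on its 2 probes, CENPF had -1.12 and BUB1B had -1.12. SPC25, a partner of NDC80, missed the line at -0.96. MIS12, which links centromere and outer kinetochore, was the highest of the 4 genes above 0, at 208, 339 and 356, a ratio of 0.77. OIP5, which helps place the centromeric histone CENPA, had -1.17.

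Spindle, condensin and cytokinesis genes were all below 0, 34 of 34, with a median of -0.70 and 7 past 2-fold. DLGAP5, a spindle protein, was at 557, 374 and 159, a ratio of -1.81, and HMMR, which acts at spindle poles, was at 625, 426 and 223, a ratio of -1.48. TOP2A, the topoisomerase that untangles chromosomes, was at 1213, 1306 and 511, a ratio of -1.25, with -1.41 on its second probe. BIRC5, survivin, was at 713, 691 and 317. ANLN, of the cleavage furrow, and CDCA3, a mitotic entry factor, had -1.07 and -1.13. PSRC1 and SAPCD2, which act on the spindle and its orientation, had -1.12 and -1.02. The member nearest 0 was TACC3, a spindle protein named outside the rule, at -0.13.

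Kinesins split by role. Of 13 mitotic kinesins, 12 were below 0 with a median of -0.60 (-0.94 in the authors' value table), and KIF20A and KIFC1 were past 2-fold at -1.07 and -1.01. Of 24 transport kinesins and dyneins, 0 were past 2-fold, 17 were above 0 and the median was 0.06. KIF20A, which acts in cytokinesis, was at 242, 298 and 116, so its 5 µM level lay above DMSO. Centrosome genes were near the whole set, with a median of -0.04 over 26 genes.

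A motif of cell cycle promoters, the CHR, known as a site of the MuvB complexes, was searched as TTTGAA on both strands. It was found in 12 of 20 windows of the mitosis genes past 2-fold, in 17 of 44 windows of lower genes (38.6%), in 1 of 60 of higher genes (1.67%) and in 11.1% of all detected. CHR and a CCAAT box stood together in 9 of 20 windows of the mitosis genes, in 0 of 60 of higher genes and in 4.75% of all detected. The 20 mitosis genes had been grouped after their values were seen, and genes of mitosis share such promoters in any cell, so these shares describe the group and not the treatment. The 200 bases before the start of 4 of them are shown because each holds both motifs, with CHR and CCAAT boxes in capitals on either strand, where ATTGG is CCAAT and TTCAAA is CHR read on the other strand.

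CCNB2: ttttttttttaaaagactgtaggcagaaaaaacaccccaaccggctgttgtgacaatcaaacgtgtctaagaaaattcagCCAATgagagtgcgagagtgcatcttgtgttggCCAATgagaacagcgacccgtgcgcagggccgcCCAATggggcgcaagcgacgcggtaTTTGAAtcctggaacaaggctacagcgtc
DLGAP5: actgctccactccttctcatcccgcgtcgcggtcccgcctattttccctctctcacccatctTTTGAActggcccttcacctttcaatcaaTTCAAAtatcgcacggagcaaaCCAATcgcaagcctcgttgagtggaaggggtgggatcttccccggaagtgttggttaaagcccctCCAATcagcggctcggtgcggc
HMMR: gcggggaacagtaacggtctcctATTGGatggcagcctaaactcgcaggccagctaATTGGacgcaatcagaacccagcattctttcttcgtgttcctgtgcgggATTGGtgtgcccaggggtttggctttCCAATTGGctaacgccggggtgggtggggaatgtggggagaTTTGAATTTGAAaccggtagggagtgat
TOP2A: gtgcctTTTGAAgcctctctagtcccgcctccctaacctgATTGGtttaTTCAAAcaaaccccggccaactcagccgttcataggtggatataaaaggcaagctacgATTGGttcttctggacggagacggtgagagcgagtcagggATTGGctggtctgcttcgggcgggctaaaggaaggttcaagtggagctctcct

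The CCNB2 window is chr15:59104946-59105145 on the plus strand, with CHR 29 bases before the start and CCAAT boxes at 120, 87 and 54. The DLGAP5 window is chr14:55191586-55191785 on the minus strand, with CHR at 138 and 109. The HMMR window is chr5:163460432-163460631 on the plus strand, where 2 adjoining CHR matches stand at 28 and 22. The TOP2A window is chr17:40417897-40418096 on the minus strand, with CHR at 194 and 151. CCNB2 and HMMR carry their CHR within the last 30 bases before the start, DLGAP5 and TOP2A farther out. CCNB1 and BUB1, both past 2-fold, had CCAAT boxes and no CHR letters in their windows.

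**Figure D4:**
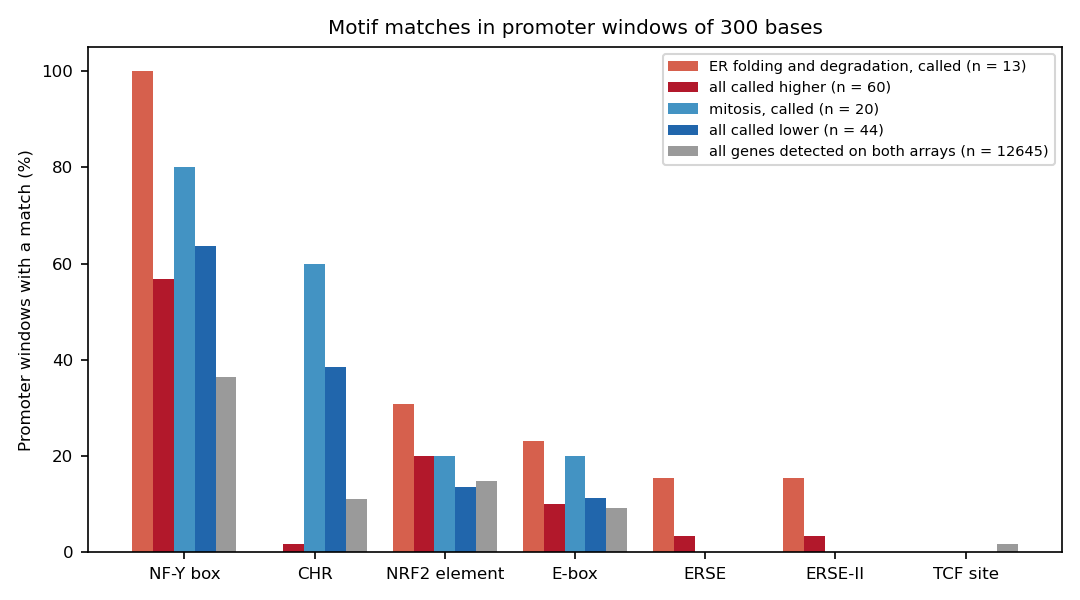
Bars give the percent of promoter windows of 300 bases with at least 1 match, on either strand, for 5 sets of genes and 7 motifs, where NF-Y box stands for CCAAT. The ER genes reach 100% for the NF-Y box, and the mitosis genes reach 60% for CHR against 11.1% of all detected genes.

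DNA replication genes were lower by less. Licensing factors, which load the MCM helicase on origins, had 25 of 28 below 0 and a median of -0.24, which was -0.47 in the authors' value table. MCM6, MCM3, MCM2 and MCM4, subunits of the helicase, lay between -0.76 and -0.68. CDC6, which loads the helicase, went the other way at 757, 1445 and 1566, a ratio of 1.05, and its 5 µM level already stood near the 20 µM level. The replication fork list had 27 of 32 below 0 and a median of -0.20 (-0.33 in that table), with PCNA, the sliding clamp, at -0.82. TYMS, thymidylate synthase, was at 1136, 868 and 548, a ratio of -1.05, and TYMSOS, the RNA from its opposite strand, had -1.13. Whether the probes of both separate these strands was not tested.

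Among regulators of the cell cycle, CDKN2B, the CDK4 and CDK6 inhibitor p15, was at 522, 619 and 1238, a ratio of 1.25. CDKN1A, the inhibitor p21, had 0.84, and SKP2, which targets inhibitors for degradation, had -0.80. Cohesin and recombination genes had a median of -0.19 over 30 genes (-0.33 in the authors' value table) with 0 past 2-fold.

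Histone genes had 27 of 28 below 0 and a median of -0.49, which was -0.29 with no filter on dim probes. H2AC6, an H2A gene, was at 503, 269 and 242, a ratio of -1.05. H3-3B, a replacement H3.3 gene, was at 530, 353 and 264, a ratio of -1.01. Histone genes of a class are nearly alike in sequence, so their probes may share targets. HMGN3 and HMGB3, proteins of open chromatin, had -1.10 and -1.09, and the pseudogene HMGB3P8 had -1.08. All 19 symbols that start with HMGN and a number were below 0, with a median of -0.35. They include pseudogenes, whose probes may read the parent genes.

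ENC1, an actin-binding protein described as a target of beta-catenin, had the lowest ratio of all genes, at -2.05 or 4.14-fold. It was at 1614 in DMSO, 889 at 5 µM and 390 at 20 µM. In the authors' value table, which adds no offset, ENC1 read -2.259, against -3.203 for DMP1, -3.105 for PTPRO and -3.089 for SOSTDC1. The raw 20 µM signals of these last 3 were 87.7, 89.0 and 98.5, near the detection threshold of 80.2. Their ratios in that table thus rest on little signal above the blank spots. Across the 8 settings described at the end, the values nearest 0 were -0.95 for DMP1, -0.97 for PTPRO and -1.36 for SOSTDC1. SOSTDC1, a secreted antagonist of Wnt and BMP, was at 229, 141 and 74.2, a ratio of -1.63. BMP4, a BMP ligand, was at 1534, 1201 and 656, and ID2, an inhibitor of differentiation factors, was at 297, 169 and 127, both with ratios of -1.23. For ENC1, SOSTDC1, BMP4 and ID2 the levels were in the order DMSO, 5 µM, 20 µM from high to low. The transcription factors MEIS2 and HOXB7 had -1.32 and -1.18, and HOXB5 had -0.62.

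The parent compound, linderapyrone, is known as a Wnt pathway inhibitor. The list of Wnt target genes was chosen with earlier results of these data known, so its count describes these values and is no support. Of its 35 detected genes, 5 were past 2-fold, namely ENC1, BMP4, ID2, PTPRO (-1.23, at a dim 64.6 at 20 µM) and SLC12A2 (-1.15). In the list 27 genes were below 0, and the median was -0.08. In the authors' value table that median was -0.24. Over all genes 0.324% were at least 2-fold lower. AXIN2, the feedback gene most used as a readout, was dim at 99.7, 91.2 and 87.0, a ratio of -0.20, LGR5 had -0.04 and MYC had 0.18, all named outside the rule. Components of the pathway itself had a median of -0.0060 over 43 genes, which changed sign under median scaling. The TCF site, searched as ATCAAAG, was in 0 of 44 windows of lower genes, 0 of 60 of higher genes and 1.74% of all detected. At so low a share, 0 matches in sets this small cannot tell them from all detected genes. Sites outside the windows were not searched.

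Among signalling genes, ITPKA, which phosphorylates inositol trisphosphate, was at 112, 144 and 529, a ratio of 2.23, the third highest of all. In the authors' value table ITPKA read 2.997, above NIBAN1 at 2.785. JAG1, a Notch ligand, was at 153, 178 and 403, a ratio of 1.40, and 0 other genes of the 24 in the Notch list were past 2-fold. DUSP5, a phosphatase of nuclear ERK, was at 506, 699 and 1192, a ratio of 1.24, and EGR1, an immediate-early factor, was at 583, 420 and 272, a ratio of -1.10. RGS16 had 1.13 and RGS2, of the same family of G protein regulators, had -1.03. PKIB, an inhibitor of protein kinase A, and PTPRH, a receptor phosphatase, had 1.14 and 1.01. PLK2, a stress-responsive Polo kinase, and EDN1, endothelin, had -1.12 and -1.01.

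Some metabolic genes past 2-fold were single members of lists that otherwise stood near 0. HKDC1, UPP1, NAMPT and MOCOS were in none of the lists. GPAT3, which starts triglyceride synthesis, was at 117, 173 and 371, a ratio of 1.67, and PLIN2, which coats lipid droplets, had 0.95, in a list of 31 genes with a median of 0.01. HKDC1, a hexokinase-like enzyme, had 1.43 and 1.12 on its 2 probes. UPP1, uridine phosphorylase, had 1.38, NAMPT, of NAD salvage, had 1.32 and FADS3, of the desaturase family, had 1.20. CA12, a carbonic anhydrase, and MOCOS, an enzyme of the molybdenum cofactor, had 1.24 and 1.19. LDHA, lactate dehydrogenase, was among the brightest genes of the set, at 13790, 11110 and 5637, a ratio of -1.29. It was the 1 gene past 2-fold of 26 listed for glycolysis, a list that does not include HKDC1. The median of that list was -0.08, and -0.17 in the authors' value table. NOX1, the NADPH oxidase of colon, had -1.03 and -0.80 on its 2 probes.

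SEPHS2, which makes the selenium donor for selenoproteins, was at 1139, 1502 and 2347, a ratio of 1.04. SELENOK, SELENOS and TXNRD1, which also encode selenoproteins, were past 2-fold too. These genes were picked after their values were seen, and how many detected genes encode selenoproteins was not counted. Under median scaling SEPHS2 and TXNRD1 fell short of the line, at 0.92 and 0.88.

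Nuclear genes for the respiratory chain and the mitochondrial ribosome had medians below 0, with 0 past 2-fold. Complex I of the respiratory chain had 34 of 36 below 0 and a median of -0.26, with NDUFA2 lowest at -0.65. Complexes III to V had 32 of 34 below 0 and a median of -0.28, with ATP5F1A, of the ATP synthase, lowest at -0.60. The symbol family NDUFB had 11 of 11 below 0 and the lowest median of the 214 families, -0.38. Mitochondrial ribosomal proteins had 44 of 61 below 0 and a median of -0.19, from MRPL16 at -0.85 to MRPL42 at 0.51, and the median was -0.30 under median scaling. Cytosolic ribosomal proteins, 59 genes, had a median of 0.03, which became -0.04 under median scaling. A few mitochondrial stress proteins stood on the higher side, the import subunit TIMM17A at 0.73, the protease LONP1 at 0.68 and the chaperone HSPA9 at 0.62. MGME1, an exonuclease of mitochondrial DNA outside these lists, was at 506, 332 and 244, a ratio of -1.05.

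**Figure D5:**
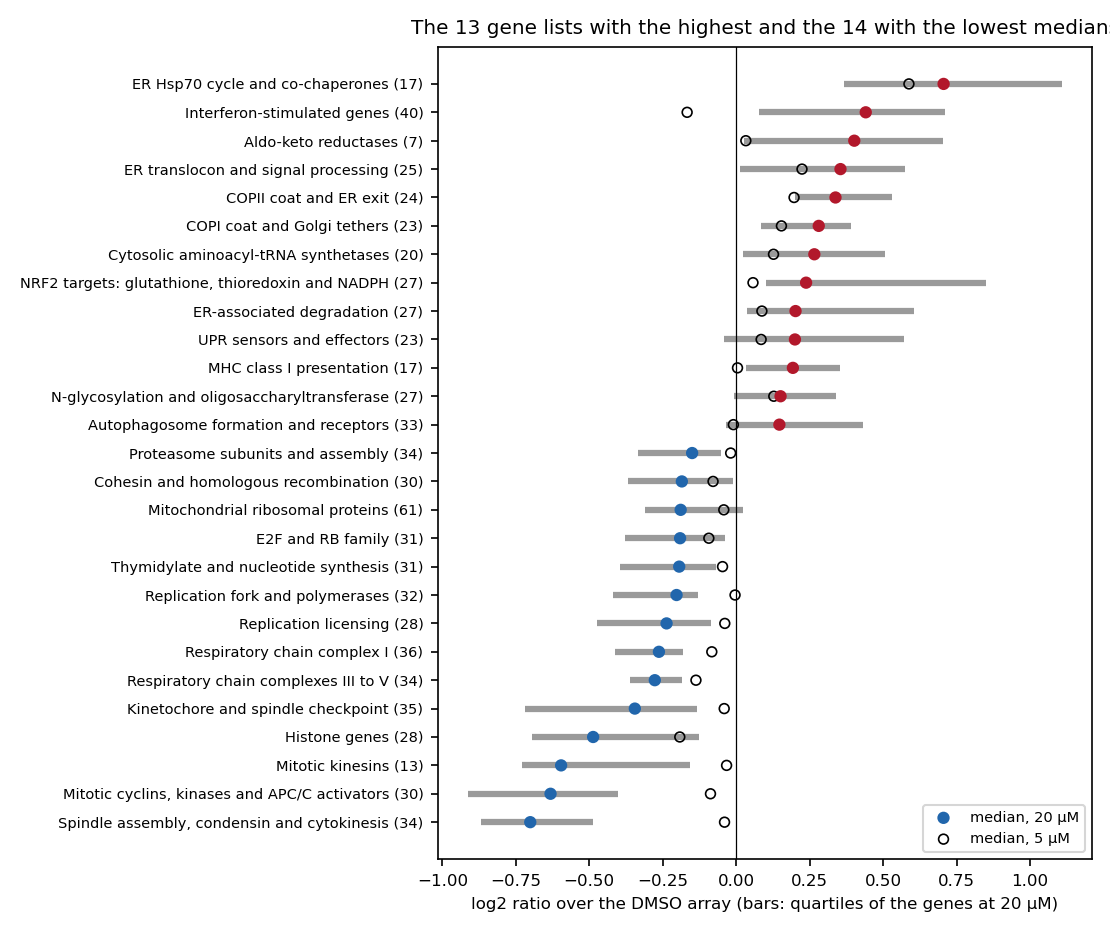
For the 13 lists with the highest and the 14 with the lowest medians of 78, filled points give the median log2 ratio of 20 µM over DMSO (red above 0, blue below 0), grey bars its quartiles, open points the median of 5 µM over the same DMSO array, with the number of genes in brackets. The BiP cycle is highest at 0.71 and spindle, condensin and cytokinesis lowest at -0.70, and interferon-stimulated genes are at 0.44 for 20 µM and -0.17 for 5 µM.

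Genes of colon epithelium showed single differences. KRT20, a keratin of differentiated colon cells, was at 1021, 1266 and 1928, a ratio of 0.92, while KRT18 had -0.40, and its other probes had 0.02 and 0.03. LCN2, which binds bacterial siderophores, was at 1169, 1939 and 2985, a ratio of 1.35. SERPINB8, a protease inhibitor, had 1.50. ESRP1, an epithelial splicing factor, had 1.08. CFTR, the chloride channel, missed the line at -0.98, and SLC12A2, the chloride importer of secretory epithelia, was at 746, 536 and 335. STEAP1, a metalloreductase, and SLC20A1, a phosphate transporter, had 1.22 and 1.10, and DCBLD2, a receptor-like protein, had 1.05. SLITRK6, a neuronal membrane protein, had -1.12 and -1.10 on its 2 probes. COL4A2, a collagen of basement membranes, and TNS3, which links integrins to actin, had -1.01 and -1.02. Their second probes gave -0.70 and -0.16, that of TNS3 being dim at 65.5 in DMSO.

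Of the lists of other functions, those of membranes and metabolism had medians between -0.10 and 0.04. Cholesterol synthesis had a median of -0.04 over 24 genes, from INSIG1, which holds back SREBP, at -0.54 to CYP51A1, a synthesis enzyme, at 0.69 (617, 506 and 992). Fatty acid synthesis (24 genes, 0.0098) and phospholipid and sphingolipid synthesis (30 genes, 0.03) had medians that turned below 0 under median scaling. Mitochondrial fatty acid oxidation had 17 of 26 below 0 and a median of -0.07, with HADHA, of the trifunctional protein, at 1177, 933 and 666, a ratio of -0.82. The TCA cycle had 18 of 25 below 0 and a median of -0.10, with IDH2 and SDHA lowest, both at -0.52. Under median scaling these medians were -0.13 for oxidation and -0.17 for the cycle. Mitochondrial import and folding had a median of -0.05 over 34 genes. Serine, one-carbon and polyamine enzymes (25 genes, 0.01) and hypoxia-inducible genes (25 genes, 0.04) turned below 0 under median scaling, and KDM3A, a hypoxia-inducible histone demethylase, had 0.79. Amino acid transporters had 15 of 20 above 0 and a median of 0.04, from SLC1A1, a glutamate transporter, at -0.94 to SLC38A1, a glutamine transporter, at 0.75.

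Iron genes (17 genes, 0.02) and metallothioneins with zinc carriers (16 genes, 0.05) also turned below 0 under median scaling. SLC40A1, the iron exporter ferroportin, was at 619, 440 and 332, a ratio of -0.90. Targets of the aryl hydrocarbon receptor with cytochromes and efflux pumps had a median of 0.03 over 24 genes and 0 past 2-fold. ER calcium genes had a median of 0.0040 over 21 genes, with ITPKA and CALU past 2-fold and ORAI3, a channel subunit, lowest at -0.50. This median turned below 0 in the authors' table. The chaperonin TRiC and prefoldin had 10 of 14 below 0 and a median of -0.11, or -0.23 under median scaling.

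In gene expression, ribosome biogenesis factors had 24 of 40 above 0 and a median of 0.10, which was -0.00055 under median scaling, and NOP2, a ribosomal RNA methyltransferase, had 0.69 and 0.62 on its 2 probes. Translation factors (42 genes, 0.04) and RNA polymerase II with Mediator (40 genes, 0.02) turned below 0 under that scaling. Splicing factors had 26 of 44 below 0 and a median of -0.09, with TRA2B, an SR-like factor, at 585, 1163 and 1049, a ratio of 0.84, and HNRNPA2B1, an RNA-binding protein, at -0.61. Nuclear pore and lamina genes had a median of -0.11 over 38 genes. Under median scaling the medians of these lists were -0.17 and -0.21. LMNB1, lamin B1, was at 191, 157 and 98.9, a ratio of -0.95, and RCC1, the exchange factor of Ran, had -0.92.

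In signalling, the BMP and TGF-beta list (31 genes, 0.0020) and the p53 list (27 genes, 0.01) turned below 0 under median scaling, as did Notch (24 genes, 0.0042). ERK outputs (31 genes, -0.06), growth factor receptors (26 genes, -0.05), YAP targets (25 genes, -0.01), apoptosis regulators (31 genes, -0.01), the MYC network (12 genes, 0.06), HOX genes (27 genes, -0.03), Krueppel-like and circadian factors (29 genes, 0.05) and NF-kB outputs (28 genes, 0.02) had medians within 0.1 of 0. CASP6, a caspase, was at 737, 638 and 409, a ratio of -0.85, and NFKBIA, the inhibitor of NF-kB, had -0.62 while the chemokine CXCL2 had 0.71. Nucleotide synthesis had 25 of 31 below 0 and a median of -0.19, with DTYMK, the kinase after TYMS, at -0.88. The E2F and RB family had 25 of 31 below 0 and the same median of -0.19. The former was -0.30 under median scaling and the latter -0.31 in the authors' value table. Tubulin isotypes had a median of 0.05 over 17 genes.

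In the lists of the epithelium, medians were 0.05 for enterocyte genes (28 genes), -0.03 for mucins and goblet genes (24 genes), 0.08 for keratins (16 genes), -0.04 for junctions (34 genes), 0.03 for actin and integrins (33 genes), 0.02 for ion channels (27 genes) and -0.03 for NADPH oxidases (13 genes). CEACAM6, an adhesion molecule, had 0.74, SPINK1, a trypsin inhibitor, had 0.69, ACTG1, gamma actin, had 0.83 from a level of 19110, and GJB1, a connexin, had -0.79. The median for actin and integrins turned below 0 under median scaling.

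Of the RNAs that code for no protein, MIR22HG, the host of a microRNA, was at 100.3, 177 and 295, a ratio of 1.55. ZFAS1, a host of small nucleolar RNAs, was at 4554, 7069 and 10190, a ratio of 1.16. LOC105369764 had -1.07. Zinc finger genes ZNF165, ZNF222 and ZNF841 had 1.22, 1.04 and 1.03, and ZC3H4, which acts on non-coding transcription, had -1.04.

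The remaining genes past 2-fold named here are of mixed roles, with CALU, SERP1 and DNAJC10 belonging to the 13 of ER folding and degradation. DNAJC25 and DNAJC12, J-domain proteins, had 1.62 and 1.14. CALU, a calcium-binding protein of the secretory pathway, had 1.26, SERP1, which stabilises nascent membrane proteins, had 1.27, and DNAJC10, an ER disulfide reductase, had 1.03. SDCBP2, a syntenin, had 1.56, NUCB2, a calcium-binding protein, had 1.43 and 1.29 on its 2 probes, and RWDD2A had 1.42. LURAP1L had 1.17, and UCHL3, a ubiquitin hydrolase, had 1.16 and 0.69 on its 2 probes. FTHL17, a ferritin heavy chain-like gene, had 1.03 from a level of 2044, and whether its probe reads other ferritin transcripts was not tested. DMP1, a matrix protein of bone and teeth, was at 146 in DMSO and at 63.7 and 63.3 on the treated arrays, near the detection limit.

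The 2-fold line cuts through a continuum. Just inside it on the higher side were EIF2AK3, TXNRD1, UGDH and PTPRH, between 1.01 and 1.02. Under median scaling these fell short of the line, as did others such as ESRP1 (0.99), CDC6 (0.95), NUPR1 (0.94) and DNAJC10 (0.91). Just outside were HERC5 (0.998), TECPR2 (0.993), TCEA1 (0.992) and ARHGAP29 (0.991). On the lower side, H3-3B, COL4A2, KIFC1 and PTTG1 were just inside, all at -1.01, and PHF10 (-0.99), CFTR (-0.98), LMO4 (-0.98) and SPC25 (-0.96) just outside.

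Genes detected on 1 of both arrays were 252 at 20 µM only and 332 in DMSO only. Against the lowest detected level, 0 of them were at least 2-fold apart. ERO1B, an ER oxidase, came nearest at 20 µM, at least 1.79-fold higher than in DMSO, and OR7E130P nearest in DMSO, at least 1.29-fold higher than at 20 µM.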

How the data were processed

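HT29 RNA from 3 groups (DMSO, 5 µM and 20 µM, 24 h, 1 array each) was measured on 1-colour arrays. Per the labels' protocols, RNA was amplified and coupled to a Cy5 dye. Per the file headers, the deposited scanner files give each spot's median intensity at 635 nm, read at 3 gains, with no background taken off. The extraction software is not stated in what was used here. The authors' value table, also an intensity, was used as an alternative. Against the scanner signal it followed a straight line reaching 0 at 80.0 in DMSO and 77.6 at 20 µM, near the blank means of 80.2 and 77.8, and all its columns have a median of 25, so it is linear and scaled to a common median.

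Spots were corrected by normexp (offset 50) on the signal in limma 3.58.1 (R 4.3.3) and, on the log2 scale, the 3 arrays were quantile normalized. The scanner's background column was left for an alternative, because it tracked the signal of the spot (Spearman 0.967 across spots in DMSO). Detection meant a signal above the trimmed mean (5% off each end) plus 2 SD of 480 blank and negative control spots. Per the platform annotation, 21707 of 24460 gene probes had 1 symbol, and 21675 of these matched a GRCh38.p14 record. The other 2753 had no symbol, and any probe given several symbols was counted with them. Where a gene had several probes (2893 genes), 1 stood for it, chosen by the number of arrays with detection and then by brightness.

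No test was run. The members, the 78 gene lists and the alternatives were chosen with earlier results of these data known. Named genes were those past 2-fold, the 4 nearest the line on each side, up to 4 members per list with the largest ratios, up to 8 detected on 1 array only, markers, and 2 per extreme symbol family. For promoters, the first window listed for a gene was used and 13 motifs were searched. The planned look at protein endings was not run. Alternatives covered background correction, offset, scaling, filter, probe choice and the authors' table. Tables were made with Python 3.11.15 and pandas 2.3.3.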

Additional observations from a re-analysis of the deposited data

Results flagged for a closer look

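Among 2293 detected probes without a single gene symbol, the 20 µM array read at least 2-fold above DMSO for 3 and at least 2-fold below it for 0. No test was possible at 1 array per group. They lie outside the named genes and are not identified here.

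Positions that hold no probe gave a signal on each array. The brightest empty position read 134 on the DMSO array (threshold 82.5), 101 on the 5 µM array (79.4) and 224 on the 20 µM array (80.2). Of 2412 such positions, 13.1% exceeded the threshold in DMSO, 18.4% at 5 µM and 11.5% at 20 µM.

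Interferon-stimulated genes had a median ratio of 0.44 at 20 µM and of -0.17 at 5 µM. Both ratios share the DMSO array, and the difference between the doses was not tested.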

How the results depend on the processing

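All 123 genes at least 2-fold apart kept their direction under 8 of the 10 planned settings, all but the scanner's background column and the dimmest probe, and 51 higher and 33 lower genes were past 2-fold under each of them. Counts were 114 higher and 94 lower with an offset of 16, and 218 higher and 254 lower in the authors' value table, whose blank level is taken off with no offset and whose arrays are scaled to a common median, so that it differs in several choices at once. Without background correction there were 60 higher and 33 lower. The scanner's background column, which follows the spot signal, gave 425 higher and 453 lower, with 78 of the 123 genes in the same direction. The dimmest detected probe per gene gave 61 and 48, with 122 of the 123 in the same direction. Over 422 named genes, 3094 of 3367 values moved by less than the SD between probe pairs, 273 by more, and 0 of those past 2-fold turned sign, under the 8 settings. Of 624 list medians, 12 moved by more than that SD, which pools probe pairs of all brightness. No paired analysis was possible because each group has 1 array. No replicate could be left out, so the spread between cultures is unknown, and signal close to background limits the ratios of dim genes.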
